A study of Mus musculus with 6 samples.

Results

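The genes that make, carry, break down or sense retinoic acid were followed in mouse corneal epithelial cells through 9 members. They were *Rdh10*, *Dhrs3*, *Aldh1a1*, *Aldh1a3*, *Crabp2*, *Cyp26b1*, *Rara*, *Rarg* and *Rxra*, found by gene symbol, and all 9 of them were among the 17784 genes listed. The choice was made with the difference between the groups already known, so the members' own differences are described here without a test.

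Bulk RNA-seq compared epithelium from corneas of *Prrx1-CreERT;Ptch1f/f* mice, called Ptch1Prrx1, with that of *Ptch1f/f* control mice, 3 samples each. Prrx1-CreERT is a recombinase that tamoxifen switches on in *Prrx1*-expressing cells, which include the keratocytes of the corneal stroma, the corneal endothelium and other mesenchymal cells of the eye, and *Ptch1* encodes the receptor that holds Hedgehog signalling off. The deletion was therefore aimed at cells beneath the ones that were sequenced. Mice of both groups are labelled as 10 weeks old, dosed 3 times with tamoxifen and kept for 2 months, and the epithelium was released with EDTA. How many animals stand behind each sample is not given in the sources used here, so the errors and p-values measure the spread between samples.

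Retinol, the alcohol form of vitamin A, is oxidised to retinaldehyde by retinol dehydrogenases and then, irreversibly, to retinoic acid by retinaldehyde dehydrogenases of the Aldh1a family. CYP26 enzymes break retinoic acid down, and inside the nucleus it binds retinoic acid receptors (RAR), which sit on DNA paired with retinoid X receptors (RXR). The surface epithelia of the eye depend on vitamin A, and its lack turns the moist cornea and conjunctiva into a keratinized, skin-like surface.

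Each library held 20296741 to 20625813 expected counts, so that 3 counts corresponded to 0.145 to 0.148 CPM (counts scaled to library size). Levels are given as TPM, RSEM's measure of transcript abundance, which is corrected for transcript length, and log2 fold changes (Ptch1Prrx1 over control) come from edgeR's fit to the counts of 12999 genes that passed its filter. A gene other than the 9 was called when its Benjamini-Hochberg adjusted p was at most 0.05 and its fold change at least 2. *Ptch1* itself had 7.31 to 10.2 TPM in control samples and 5.28 to 7.01 TPM in Ptch1Prrx1 samples. The corneal keratin *Krt12* lay between 37107 and 49487 TPM in all 6 samples. The keratocyte gene *Kera* did not exceed 0.07 TPM, *Col1a1* 0.66 TPM and the leukocyte gene *Ptprc* 0.20 TPM. In control replicate 3, however, the stroma markers *Col1a2* and *Vim* had 25.98 and 20.77 TPM, against at most 2.62 and 2.79 TPM in the other samples. Ptch1Prrx1 replicate 1 stood apart from the other libraries, at 55.5 on the first principal component against 19.8 and 20.8 in Ptch1Prrx1 replicates 2 and 3 and -35.8 to -28 in control samples, and values without it are given below.

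The leading transcript for the synthesis step differed between the groups. Transcripts of *Aldh1a1* were 4.07-fold lower and those of *Aldh1a3* 3.34-fold higher in Ptch1Prrx1 epithelium, while the ranges of the family's summed level overlapped. *Cyp26b1*, the clearance enzyme, was 2.88-fold lower. The retinol dehydrogenase *Rdh10* and the receptors *Rara* and *Rxra* had overlapping values, and *Rarg* and *Dhrs3* were lower by less than 2-fold.

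**Figure D1:**
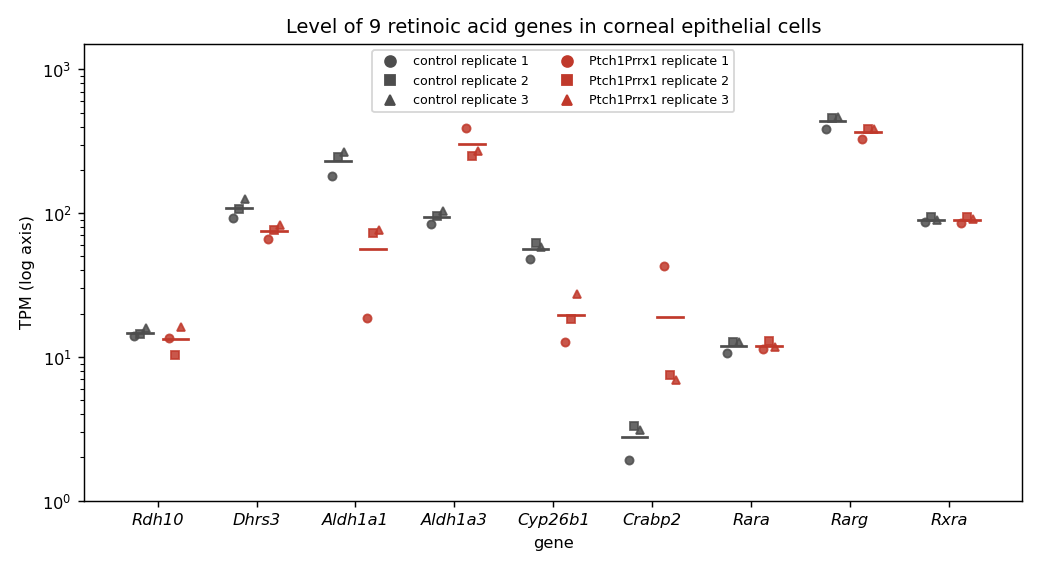
TPM of the 9 genes on a log axis, with control samples in grey and Ptch1Prrx1 samples in red. Points are single samples, with a different shape for each replicate, and lines are group means. *Aldh1a1* and *Cyp26b1* separate downward and *Aldh1a3* and *Crabp2* upward, while *Rdh10*, *Rara* and *Rxra* overlap.

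*Aldh1a1* (gene 11668), which encodes a cytosolic retinaldehyde dehydrogenase, had 181.56, 246.68 and 268.13 TPM in control replicates 1, 2 and 3. In Ptch1Prrx1 replicates 1, 2 and 3 it had 18.72, 72.78 and 76.80 TPM. The groups did not overlap, and the lowest value by far was that of Ptch1Prrx1 replicate 1. The means were 232.1 ± 45.1 TPM and 56.1 ± 32.4 TPM (SD, n = 3 each), and the log2 fold change was -2.03 (SE 0.44). Without Ptch1Prrx1 replicate 1 it was -1.62. In bulk samples such as these, fewer cells of a type and less RNA per cell cannot be told apart.

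*Aldh1a3* (gene 56847), the isozyme best known from the developing ventral retina, the nasal region and skin appendages, showed the opposite difference. It had 84.31, 94.95 and 103.21 TPM in control replicates 1, 2 and 3, against 389.61, 249.32 and 269.90 TPM in Ptch1Prrx1 replicates 1, 2 and 3. Every Ptch1Prrx1 sample lay above every control sample, again with replicate 1 the most distant. The means were 94.2 ± 9.47 TPM and 302.9 ± 75.8 TPM (SD, n = 3 each), and the log2 fold change was 1.74 (SE 0.19), or 1.47 without Ptch1Prrx1 replicate 1.

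The isozymes were then set side by side within each sample, as shares of the summed TPM of *Aldh1a1*, *Aldh1a2*, *Aldh1a3* and *Aldh1a7*. *Aldh1a1* made up 65.4%, 69.7% and 69.8% of this sum in control replicates 1, 2 and 3, and 4.49%, 21.6% and 21.2% in Ptch1Prrx1 replicates 1, 2 and 3. *Aldh1a3* made up 30.4%, 26.8% and 26.9% in the control samples and 93.4%, 74.1% and 74.4% in the Ptch1Prrx1 samples. The leading isozyme was thus *Aldh1a1* in all 3 control samples and *Aldh1a3* in all 3 Ptch1Prrx1 samples. The mean share of *Aldh1a1* differed by -52.6 percentage points, and by -46.9 points without Ptch1Prrx1 replicate 1. The sum itself was 277.7, 353.8 and 384.0 TPM in control samples and 417.2, 336.5 and 362.8 TPM in Ptch1Prrx1 samples, ranges that overlapped. With 3 samples a group, this does not show that the sums were equal.

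**Figure D2:**
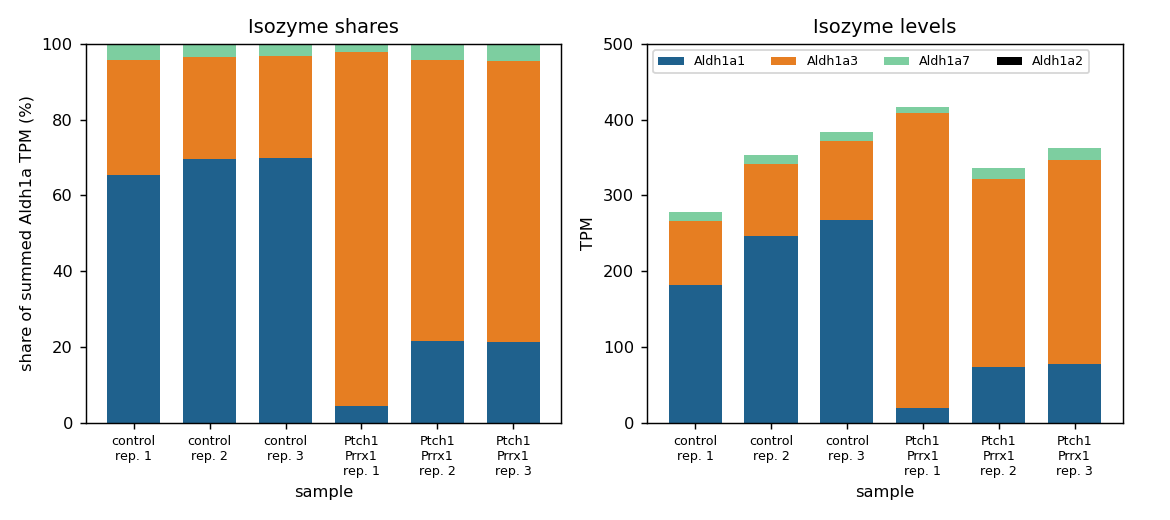
Aldh1a isozymes in each of the 6 samples, as percent of their summed TPM (left) and as stacked TPM (right). *Aldh1a1* fills 65.4% to 69.8% of the control bars and 4.49% to 21.6% of the Ptch1Prrx1 bars, and the total heights overlap between the groups.

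The remaining family members were low. *Aldh1a2*, the isozyme of the embryonic mesoderm, was listed at 0 in 5 samples and at 0.10 TPM in Ptch1Prrx1 replicate 3. *Aldh1a7*, a rodent paralogue of *Aldh1a1*, had 11.80, 12.14 and 12.67 TPM in control samples and 8.84, 14.44 and 15.98 TPM in Ptch1Prrx1 samples (log2 fold change 0.13, SE 0.18). Its values overlapped between the groups, unlike those of *Aldh1a1*.

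The promoters of these paralogues are shown because the genes differ so little there and yet differ in their values. The sequences are the 110 bases just upstream of a start site of each gene, 5′ to 3′ on the gene's strand, from RefSeq on GRCm38.p6, which is not the build named for the deposited values (mm9). *Aldh1a1* had 2 promoter windows, of which only the one with the highest start coordinate was used, and the other was not compared. Compared position by position without gaps, they are identical at 104 of 110 bases (94.5%). Capitals mark a run of 65 bases, from -94 to -30, in which they do not differ at all.
Aldh1a1, chr19:20601858-20601967, plus strand: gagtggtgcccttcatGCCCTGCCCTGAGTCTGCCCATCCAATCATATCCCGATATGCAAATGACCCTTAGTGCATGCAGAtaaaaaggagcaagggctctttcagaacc
Aldh1a7, chr19:20727557-20727666, minus strand: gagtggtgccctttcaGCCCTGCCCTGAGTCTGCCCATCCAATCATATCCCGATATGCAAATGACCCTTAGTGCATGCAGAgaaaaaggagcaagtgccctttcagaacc
The shared run holds the octamer ATGCAAAT, found on either strand in 1.74% of 32851 promoter windows of 300 bases, and CCAAT, found in 37.4%. These are matches of letters, and binding was not measured. The reference transcripts of *Aldh1a1* and *Aldh1a7* were identical at 90.3% of aligned bases, and 151 of 2004 windows of 50 bases in *Aldh1a1* (7.53%) occurred unchanged in *Aldh1a7*. RSEM divides reads that match both, so their levels are less certain than those of *Aldh1a3*, which shared no such window with *Aldh1a1* and matched it at 74.3% of aligned bases.

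*Rdh10* (gene 98711), the main retinol dehydrogenase of retinoic acid synthesis in the embryo, had 13.98, 14.46 and 15.80 TPM in control samples and 13.57, 10.32 and 16.04 TPM in Ptch1Prrx1 samples. The ranges overlapped, with a log2 fold change of -0.11 (SE 0.15) that turned to 0.04 without Ptch1Prrx1 replicate 2. *Dhrs3* (gene 20148), which reduces retinaldehyde back to retinol and works in a complex with Rdh10, had 91.89, 106.35 and 125.49 TPM in control samples. Its Ptch1Prrx1 samples had 66.52, 76.34 and 82.13 TPM, all below the control samples, and the log2 fold change was -0.50 (SE 0.10). The transcript of the reducing enzyme thus exceeded that of the oxidising one 6.57- to 7.94-fold in control samples and 4.90- to 7.40-fold in Ptch1Prrx1 samples.

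*Crabp2* (gene 12904) encodes a small protein that carries retinoic acid to the receptors. It was the least abundant of the 9 genes in control samples, at 1.92, 3.33 and 3.09 TPM, and had 42.74, 7.46 and 6.95 TPM in Ptch1Prrx1 replicates 1, 2 and 3. All Ptch1Prrx1 samples lay above the control samples, but replicate 1 was several times higher than the others. The log2 fold change of 2.86 (SE 0.80) fell to 1.38 without that library. Expected counts behind these values were 16, 27 and 25 in control samples and 358, 60 and 55 in Ptch1Prrx1 samples.

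*Cyp26b1* (gene 232174) encodes a cytochrome P450 that hydroxylates retinoic acid and so clears it. It had 47.94, 61.66 and 58.30 TPM in control replicates 1, 2 and 3 and 12.78, 18.28 and 27.26 TPM in Ptch1Prrx1 replicates 1, 2 and 3. The highest Ptch1Prrx1 sample was well under the lowest control sample. The means were 56.0 ± 7.15 TPM and 19.4 ± 7.31 TPM (SD, n = 3 each), with a log2 fold change of -1.52 (SE 0.23), or -1.31 without Ptch1Prrx1 replicate 1.

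Set against the synthesis enzymes, the summed Aldh1a TPM was 5.79, 5.74 and 6.59 times the *Cyp26b1* TPM in control samples and 32.6, 18.4 and 13.3 times in Ptch1Prrx1 samples. The ratio of *Aldh1a3* to *Cyp26b1* was 1.54 to 1.77 in control samples and 9.90 to 30.5 in Ptch1Prrx1 samples. Neither ratio overlapped between the groups. The ratio of *Aldh1a1* to *Cyp26b1* was 3.79 to 4.60 in control samples and 1.47 to 3.98 in Ptch1Prrx1 samples, so both of these transcripts were lower together and their ratio overlapped. These are ratios of transcripts, and neither enzyme activity nor retinoic acid was measured.

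*Cyp26b1* was the main CYP26 transcript in every sample, with 91.2% to 96.2% of the family's summed TPM in control samples and 88.3% to 92.1% in Ptch1Prrx1 samples. *Cyp26a1*, the form most often used as a readout of retinoic acid, had 4.45, 3.82 and 2.23 TPM in control samples and 1.55, 1.96 and 2.28 TPM in Ptch1Prrx1 samples. The log2 fold change of -0.82 (SE 0.30) did not pass edgeR's quasi-likelihood test (adjusted p = 0.105). *Cyp26c1* stayed between 0.07 and 0.21 TPM and was not tested.

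Of the receptors, *Rarg* (gene 19411), the form typical of skin and other surface epithelia, was the most abundant of all 9 genes in both groups. It had 387.03, 455.70 and 467.81 TPM in control samples and 329.25, 382.89 and 383.43 TPM in Ptch1Prrx1 samples. The Ptch1Prrx1 samples lay just below the control samples, with a log2 fold change of -0.21 (SE 0.08). *Rara* (gene 19401), the widely expressed form, had 10.60, 12.75 and 12.62 TPM against 11.32, 12.97 and 11.71 TPM (log2 fold change 0.03, SE 0.10), and its sign turned to -0.03 without control replicate 1. *Rxra* (gene 20181), the common partner of the RARs, had 86.86, 93.57 and 89.77 TPM against 85.73, 93.62 and 91.43 TPM (log2 fold change 0.04, SE 0.06). The values of *Rara* and *Rxra* overlapped between the groups.

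Among the RARs, *Rarg* took 97.1% of the summed TPM in each control sample and 96.2% to 96.7% in Ptch1Prrx1 samples. *Rarb* was near the floor, at 0.92 to 1.60 TPM in control samples and 1.40 to 1.85 TPM in Ptch1Prrx1 samples (log2 fold change 0.52, adjusted p = 0.232, edgeR). *Rxra* took 75.3% to 76.0% of the RXR sum in control samples and 75.8% to 79.6% in Ptch1Prrx1 samples. *Rxrb*, at 23.89 to 30.60 TPM, did not pass the test (log2 fold change -0.12, adjusted p = 0.393, edgeR), and *Rxrg* did not exceed 0.13 TPM.

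In order of their levels in control samples, the 9 genes ran from *Rarg* through *Aldh1a1*, *Dhrs3*, *Aldh1a3*, *Rxra*, *Cyp26b1*, *Rdh10* and *Rara* to *Crabp2*. The ranges of *Dhrs3* and *Aldh1a3* overlapped, as did those of *Aldh1a3* and *Rxra*, and the other neighbours did not. In Ptch1Prrx1 samples *Aldh1a3* was the next after *Rarg*, and *Aldh1a1* had moved to rank 5 by its mean.

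All 9 genes passed the filter. The thresholds used for calls were met upward by 1 of them (*Aldh1a3*), beside 2.34% of all tested genes, and downward by 2 (*Aldh1a1* and *Cyp26b1*), beside 0.892% of all (3.23% in either direction). Since the members were picked with this contrast in view, nothing is read from these counts. Groups did not overlap for 2 members that were higher and 4 that were lower, beside 19.7% and 20.3% of all tested genes (39.9% in either direction). The median log2 fold change was -0.11 over the members and -0.01 over all genes. *Crabp2* was past the fold but not the p threshold, and met both with DESeq2 and without Ptch1Prrx1 replicate 1 or 3. *Aldh1a3* met both thresholds in all 16 alternative fits. *Aldh1a1* missed them when any control sample was left out and in 1 fit on TPM with no filter on low values, and *Cyp26b1* when control replicate 2 was left out.

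**Figure D3:**
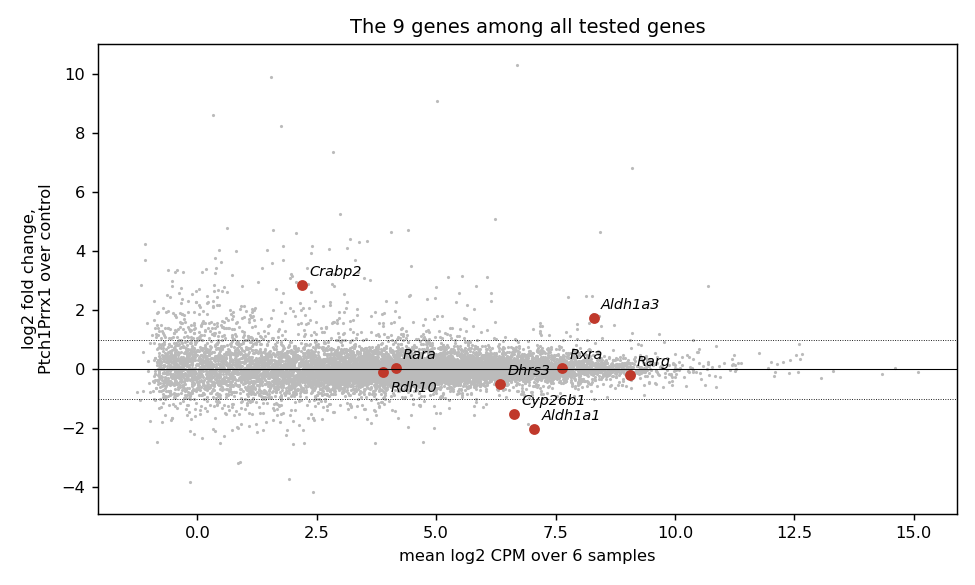
Log2 fold change (Ptch1Prrx1 over control) against mean log2 CPM for all 12999 tested genes (grey), with the 9 genes in red. Dotted lines mark a 2-fold change, beyond which *Crabp2*, *Aldh1a3*, *Cyp26b1* and *Aldh1a1* lie.

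The rest of the pathway was taken from a list of 78 other genes reported here, of which 71 were in the table and 56 were tested. In Ptch1Prrx1 samples 3 were called higher and 0 lower, beside 2.34% and 0.892% of all tested genes. With no fold threshold, edgeR's adjusted p alone gave 5 higher and 5 lower, beside 7.61% and 6.41% of all. At an unadjusted p under 0.05 in edgeR, 9 were higher and 7 lower, and the share of all tested genes at that threshold is not given here. DESeq2 called 4 higher and limma-voom 3, and both likewise called 0 lower. The gene that DESeq2 added was *Rdh16* (log2 fold change 1.405, adjusted p = 0.0635, edgeR). The median log2 fold change of the list was 0.07, against -0.01 over all genes.

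Among uptake, storage and carrier genes, *Rbp2*, a retinol carrier best known from the gut, was the most abundant and overlapped between the groups, at 467.90 to 589.76 TPM against 429.07 to 702.28 TPM. *Bco1* and *Bco2*, which cleave carotenoids, fell by 0.87 and 0.69 on the log2 scale (adjusted p = 0.0222 and 0.0245, edgeR). *Ces1d*, a carboxylesterase that can release retinol from its esters, fell from 415.23, 444.84 and 426.18 TPM to 160.76, 250.38 and 337.89 TPM (log2 fold change -0.76, adjusted p = 0.0491, edgeR). The retinol-binding protein receptor *Stra6* did not exceed 0.60 TPM, and *Lrat*, which makes retinyl esters, 0.21 TPM. Of the 9 tested genes with these roles that are reported here, 3 (33.3%) thus passed on adjusted p alone, all lower, beside 6.41% of all tested genes. *Ces1d* passed in 8 of 16 alternative fits (adjusted p from 0.00106 to 0.152), and *Bco1* and *Bco2* in 12 each (0.00244 to 0.0881 and 0.0109 to 0.103).

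Of 22 tested genes for the exchange of retinol and retinaldehyde, *Akr1b8*, an aldo-keto reductase, rose from 9.30, 10.07 and 13.25 TPM to 87.27, 48.45 and 44.51 TPM (log2 fold change 2.52, SE 0.31, adjusted p = 0.0077, edgeR). Its close relative *Akr1b10* fell by 0.33 on the log2 scale (adjusted p = 0.0344, edgeR, passing in 8 of 16 alternative fits), and reads of near-identical stretches can be divided between them. The most abundant genes of this group, the alcohol dehydrogenases *Adh1* and *Adh7* and the reductase *Akr1b3*, did not pass the test. *Adh1* had 1612.83, 1961.91 and 1632.71 TPM in control samples and 1048.39, 1155.87 and 1592.13 TPM in Ptch1Prrx1 samples (adjusted p = 0.0792, edgeR). Its level far exceeded that of *Rdh10* in all 6 samples.

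*Fabp5*, which carries fatty acids and can deliver retinoic acid to the receptor PPARδ instead of the RARs, rose from 251.60, 220.37 and 204.69 TPM to 2195.98, 860.65 and 527.40 TPM (log2 fold change 2.47, SE 0.51, adjusted p = 0.0249, edgeR). Ptch1Prrx1 replicate 1 was again the highest, and the log2 fold change was 1.64 without it. The ratio of *Fabp5* to *Crabp2* TPM was 66.2 to 131 in control samples and 51.4 to 115 in Ptch1Prrx1 samples, so the balance of these carriers overlapped although both were higher. *Fabp5* has pseudogene copies that can share its reads, and *Crabp1* was not analysed here.

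Of 6 tested genes for breakdown beside *Cyp26b1*, *Ugt1a7c*, which attaches glucuronic acid, rose from 0.35, 1.39 and 0.90 TPM to 2.94, 2.72 and 2.84 TPM (log2 fold change 1.73, adjusted p = 0.0327, edgeR). It shares exons with other *Ugt1a* genes, and its neighbour *Ugt1a6a* overlapped between the groups, at 32.48 to 33.34 TPM against 28.19 to 38.89 TPM. *Cyp2s1*, a P450 of surface epithelia, fell from 69.55, 79.44 and 70.37 TPM to 51.67, 53.88 and 46.16 TPM (log2 fold change -0.49, adjusted p = 0.0237, edgeR). Of 17 tested receptors and co-regulators, 0 were called with edgeR, DESeq2 or limma-voom (3 had an unadjusted p under 0.05 in edgeR, all higher), and *Crebbp* and *Pnrc1*, both coactivators, rose by less than 2-fold (log2 fold changes 0.30 and 0.55, adjusted p = 0.0383 and 0.0338, edgeR). *Crebbp* passed in 6 of 16 alternative fits and *Pnrc1* in 13, while *Cyp2s1* passed in 14. Without control replicate 2 none of the 3 calls was made, and without control replicate 3 those of *Fabp5* and *Ugt1a7c* were lost. *Ugt1a7c* also lost its call without any of the Ptch1Prrx1 replicates, and *Fabp5* without control replicate 1 and in the fit on TPM with no filter.

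**Figure D4:**
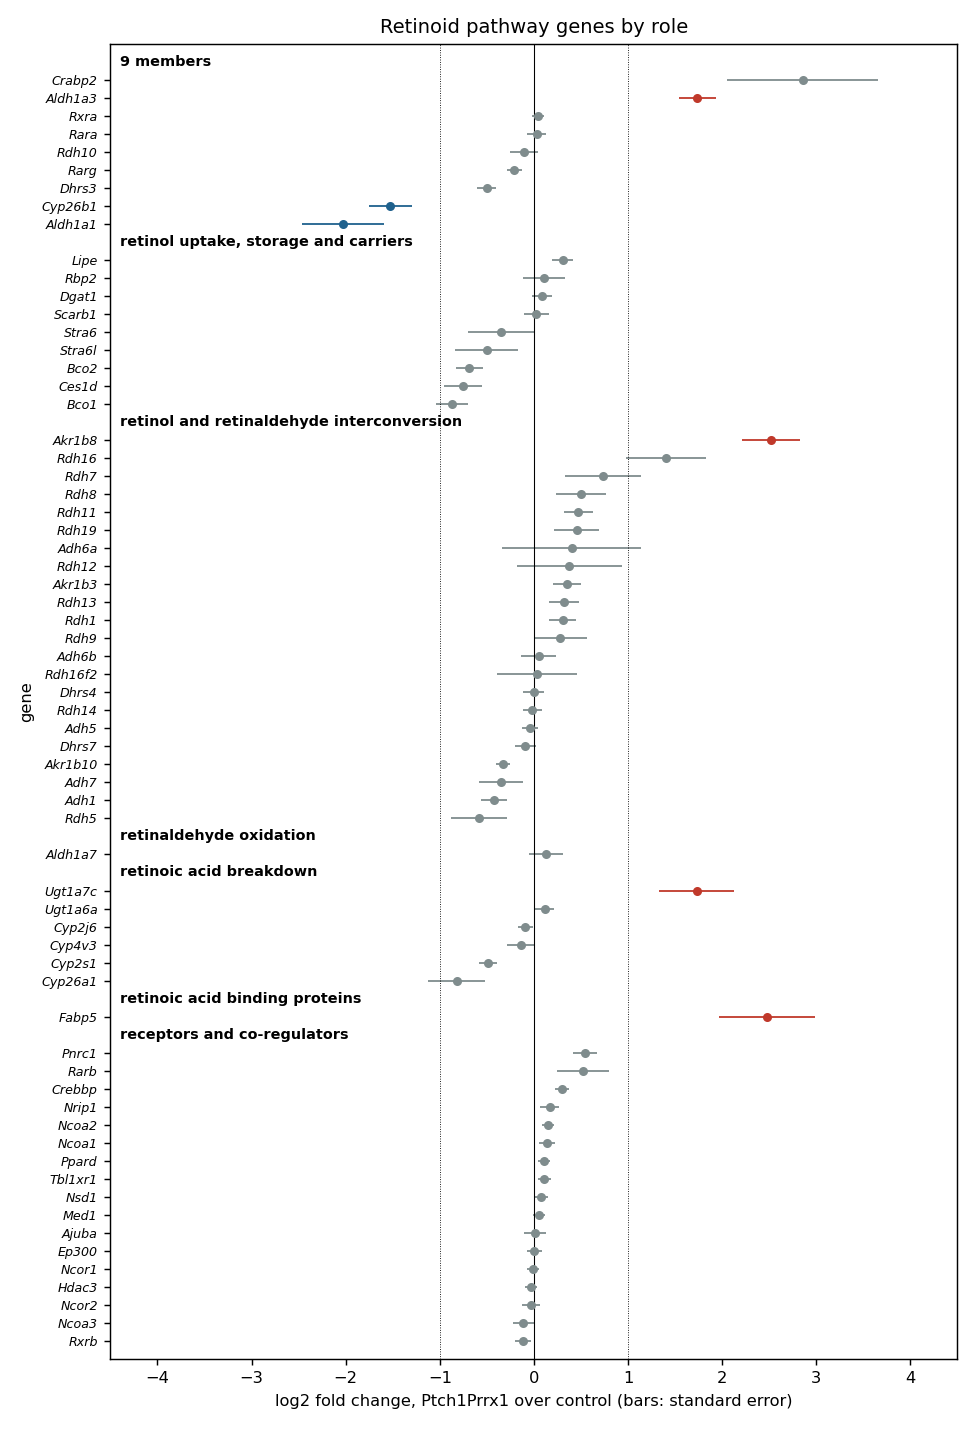
Log2 fold change (Ptch1Prrx1 over control) with its standard error for the 9 genes and the 56 other tested retinoid genes reported here, grouped by role. Red and blue mark an adjusted p of at most 0.05 with at least a 2-fold difference, upward or downward, grey marks all other genes, and dotted lines mark 2-fold. Red points lie in 3 of the 6 other roles, and blue points are seen only among the 9 genes.

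Genes known to respond to retinoic acid in some tissue were examined next. The list held none of the members described above, such as *Dhrs3*, *Cyp26b1* and *Crabp2*, so any response of theirs is not counted in it. It took no account of the direction of response and held 34 genes reported here, with 20 tested. Of these, 1 (*Muc16*) was called higher and 0 lower by edgeR, DESeq2 and limma-voom alike. In edgeR the shares of all tested genes called were 2.34% and 0.892%. At an unadjusted p under 0.05 in edgeR, 7 were higher and 6 lower, and the share of all tested genes at that threshold is not given here. *Muc16*, a membrane mucin, was very low, at 0.05 to 0.11 TPM in control samples and 0.20 to 0.37 TPM in Ptch1Prrx1 samples (log2 fold change 1.92, adjusted p = 0.0204, edgeR). Its call was lost without control replicate 1 or 2 and in the fit on TPM with no filter. By adjusted p alone, 4 were higher and 4 lower, beside 7.61% and 6.41% of all tested genes, and the median log2 fold change was 0.14. Those that fell included *Tgm2*, a transglutaminase and long-used marker of retinoid response, with 552.79, 603.16 and 520.45 TPM in control samples and 366.86, 414.25 and 379.69 TPM in Ptch1Prrx1 samples (log2 fold change -0.49, adjusted p = 0.0179, edgeR). The homeobox gene *Meis1* (-0.42), *Plaat3* (-0.41) and *Zfp703* (-0.37) fell likewise. *Muc4* (0.50), *Rarres1* (0.65) and *Rai14* (0.30) rose by less than 2-fold. Of 16 alternative fits, *Tgm2* passed on adjusted p in 14, *Plaat3* and *Zfp703* in 13 each, *Muc4* in 12, *Rarres1* in 8, *Meis1* in 7 and *Rai14* in 4. Genes of the list thus passed in both directions, and the classical targets *Rarb* and *Cyp26a1* passed in neither.

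In the windows searched, those classical targets are the listed retinoid and response genes that hold the textbook response element. It is a direct repeat of a 6-letter element with 5 bases between (DR5), and each copy was searched on both strands as AGGTCA, also as AGTTCA, also as GGGTCA and also as GGTTCA. The repeats found upstream of *Rarb* and *Cyp26a1* are printed from RefSeq windows on GRCm38.p6, each 5′ to 3′ along the strand that reads the element forward, with its copies in capitals.
Rarb, chr14:16575505-16575537, minus strand, repeat at -53 to -37: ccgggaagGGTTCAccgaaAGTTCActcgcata
Cyp26a1, chr19:37697768-37697800, minus strand, repeat at -32 to -16: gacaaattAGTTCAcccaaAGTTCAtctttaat
A DR5 stood in 32 of 32851 windows reaching from 250 bases before to 50 after a start site (0.0974%), and repeats with spacers of 1 and 2 bases stood in 0.222% and 0.268%. Among the other listed retinoid genes, *Bco1* held a repeat with a spacer of 1 base, at -56 to -44. Of the 9 genes, 6 had 14 windows in all, and none of these held a repeat of any of these spacings. A single 6-letter element was in 5 of them, beside 43.7% of all windows. *Aldh1a3*, *Crabp2* and *Rdh10* had no window. The search covers only these letters in these windows.

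Markers of other cells were set beside these results. *Aldh1a1* is also abundant in keratocytes. The 17 stroma and keratocyte markers found summed to 70.69 to 129.6 TPM in control samples and 122.5 to 139.2 TPM in Ptch1Prrx1 samples, mostly from *Fbln1*, and 0 of the 7 tested were called by edgeR (1 higher and 1 lower at an unadjusted p under 0.05, and 1 called lower by DESeq2). The other 16, a sum formed after *Fbln1* was seen to dominate, gave 12.89, 10.75 and 69.15 TPM in control replicates 1, 2 and 3 and 12.9, 13.77 and 8.64 TPM in Ptch1Prrx1 samples. Beside these sums, *Aldh1a1* had 181.56, 246.68 and 268.13 TPM in control samples and 18.72, 72.78 and 76.80 TPM in Ptch1Prrx1 samples. The part of stromal cells in the *Aldh1a1* values was not tested.

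Conjunctival markers differed in both directions. The 8 found summed to 1409, 1870 and 2341 TPM in control samples and 4691, 2193 and 2915 TPM in Ptch1Prrx1 samples, and of the 6 tested 0 were called by edgeR (3 higher and 1 lower at an unadjusted p under 0.05, and 1 called higher by DESeq2). Most of each sum came from the keratin *Krt13*, which is also in the response list (log2 fold change 0.68, adjusted p = 0.107, edgeR). It had 1193.44, 1552.85 and 1876.5 TPM in control samples and 3181.95, 1842.52 and 2009.23 TPM in Ptch1Prrx1 samples. The conjunctival keratin *Krt4* had 104.77, 151.61 and 223.48 TPM in control samples and 898.09, 169.67 and 528.19 TPM in Ptch1Prrx1 samples, while the goblet cell gene *Tff3* was at 0 in 4 samples and reached 0.53 TPM. The keratin *Krt8* of the same list fell, from 11.98, 15.62 and 12.99 TPM to 5.90, 7.96 and 7.10 TPM (log2 fold change -0.91, adjusted p = 0.0139, edgeR). In Ptch1Prrx1 replicate 2, *Krt4* and the sum lay within the control range, beside *Aldh1a3* at 249.32 TPM and *Cyp26b1* at 18.28 TPM. The part of conjunctival cells in these values was not tested. In Ptch1Prrx1 replicate 1, where *Crabp2*, *Fabp5* and *Aldh1a3* were highest and *Aldh1a1* lowest, *Krt4* was also highest, and *S100a8* and *S100a9*, which neutrophils and stressed keratinocytes express, stood at 78.8 and 373 TPM against at most 0.94 and 7.02 TPM elsewhere. In that library the leukocyte genes *Ptprc* and *Lyz2* were at 0.02 and 0 TPM, but *Lyz2* did not exceed 0.32 TPM in any sample. Among other immune markers, *Itgam* and *Cd68* were highest there, at 128.51 and 65.48 TPM against at most 113.13 and 51.34 TPM elsewhere. *H2-Aa* and *H2-Ab1* were also highest there, whereas *Cd74* and *C1qa* lay within the range of the other samples. The 15 immune markers summed to 138.4 to 179.5 TPM in control samples, to 160.2 and 188.1 TPM in Ptch1Prrx1 replicates 2 and 3, and to 672.8 TPM in replicate 1. Most of the sum in Ptch1Prrx1 replicate 1 came from *S100a8* and *S100a9*, and most of it in the other samples from *Itgam* and *Cd68*. The part of immune cells in the values of that library was not tested.

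**Figure D5:**
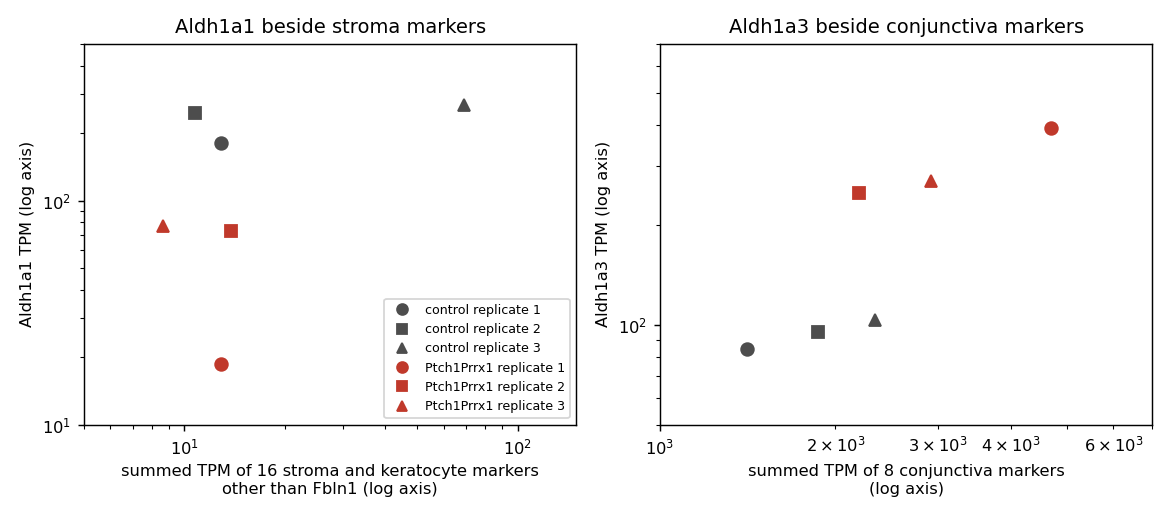
*Aldh1a1* TPM against the summed TPM of 16 stroma and keratocyte markers other than *Fbln1* (left), and *Aldh1a3* TPM against that of 8 conjunctiva markers (right), 1 point per sample, both on log axes. Stroma sums run from 8.64 to 69.15 TPM, with control replicate 3 at the right edge, and conjunctiva sums run from 1409 to 4691 TPM, with Ptch1Prrx1 replicate 1 at the right edge. The conjunctiva sums are mostly *Krt13*.

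Genes outside the retinoid lists also moved with the genotype. The basal keratin *Krt14* rose from 533.85, 535.13 and 643.64 TPM to 5798.04, 3254.11 and 2420.41 TPM. Of 11 tested limbal markers 1 was called higher, beside 2.34% of all tested genes, and it was *Socs3*, a feedback inhibitor of cytokine signalling. The 12 limbal markers found summed to 3144 to 4352 TPM in control samples and 4670 to 6946 TPM in Ptch1Prrx1 samples. Most of each sum came from *Krt15*, *Mt1* and *Mt2*. The limbal keratin *Krt15* did not pass, and its values overlapped. Those of *Gpha2* overlapped too (log2 fold change 0.26, adjusted p = 0.392, edgeR). By edgeR's adjusted p alone, 2 limbal markers were higher and 1 lower, beside 7.61% and 6.41% of all tested genes. These were *Socs3* and *Mt2* (adjusted p = 0.0253, edgeR) upward and *Abcg2* (adjusted p = 0.0476, edgeR) downward. With limma-voom 2 were called higher, and with DESeq2 1. Of 16 tested genes of epidermal keratinization, 8 were called higher and 0 lower, beside the same 2.34% and 0.892% of all. By adjusted p alone 9 were higher and 1 lower, beside 7.61% and 6.41% of all. The lower gene was *Krt1* (log2 fold change -0.64, adjusted p = 0.0401, edgeR), and *Krt10* overlapped between the groups. The 20 listed summed to 10700 to 11270 TPM in control samples and 16920 to 25890 TPM in Ptch1Prrx1 samples. Most of each sum came from *Krt6a* and *Krt6b*, which were not called. *Krt6a* passed on adjusted p alone (log2 fold change 0.86, adjusted p = 0.0166, edgeR). The 8 called genes were *Sprr1a*, *Sprr1b*, *Sprr3*, *Ivl*, *Flg*, *Krt16*, *Cnfn* and *Lce3a*. Their log2 fold changes ran from 1.06 (*Ivl*) to 10.28 (*Sprr1b*, at most 0.68 TPM in control samples). Of 21 immediate early genes, switched on quickly by stress and growth factors, 12 were called higher, beside 2.34% of all, with sums of 1665 to 2029 TPM and 3806 to 4443 TPM. Their part in the retinoid values was not tested.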

How the data were processed

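RNA was extracted from corneal epithelial cells of 3 control and 3 Ptch1Prrx1 samples. The authors aligned reads with Bowtie2 2.2.5 to mm9 and quantified genes with RSEM 1.2.12 (versions and build from the submitters' processing notes). They deposited expected counts, which are not scaled for depth, and TPM, scaled for length and depth. The authors also deposited FPKM, per sample, and means of each unit by group, and none of these entered a result. The paper describes rRNA depletion and DNA nanoball sequencing, the labels an Illumina kit, so library type and strandedness are uncertain. Age at induction is 2 months in the paper's text and 10 weeks in the labels. Of counts above 0, 39.4% were not whole (tolerance 0.001). The number of columns of other samples was 0.

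Expected counts were rounded, filtered with filterByExpr (12999 of 17784 genes kept), scaled by TMM (0.96 to 1.03) and fitted with edgeR 4.0.16 (quasi-likelihood test, R 4.3.3) over all 6 samples. Calls needed an adjusted p (Benjamini-Hochberg, over all tested genes) no higher than 0.05 and at least 2-fold difference, a log2 fold change of 1 or more in size. Standard errors are the size of the log2 fold change over the square root of the F statistic. Groups were said not to overlap on normalized counts. Counts of genes at an unadjusted p are printed without the share of all tested genes, and nothing is read from them. An exact test of 3 against 3 samples cannot give a p below 0.1. Floors cover counting error only. Samples of a group differed by more than sampling noise and were kept as separate replicates.

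The 9 members and all gene lists were chosen with earlier results of these data known. Of the listed items, 1 is not reported here and was left out of the lists' counts, but not of the fit. Named were the members and every other Aldh1a, Cyp26, Crabp, Rar and Rxr gene in the table, but not every Rdh or Dhrs gene. Of each pathway role and of the response list, genes called, up to 5 passing on adjusted p alone and the 3 most abundant were named, with some of the latter left out of the text. *Krt12*, *Kera*, *Col1a1*, *Ptprc* and *Ptch1* were named beside them. *Krt4*, *Krt8*, *Krt14*, *Krt15*, *Abcg2*, *Socs3*, *Lyz2*, *Tff3*, *S100a8*, *S100a9* and *Fbln1* were named after their values were seen, as were *Stra6*, *Lrat* and *Ugt1a6a*. The same holds for *Itgam*, *Cd68*, *H2-Aa*, *H2-Ab1*, *Cd74*, *C1qa*, *Mt1*, *Mt2*, *Gpha2*, *Col1a2*, *Vim*, *Rdh16*, *Krt1*, *Krt6a*, *Krt6b*, *Krt10* and *Krt13*. The called genes of epidermal keratinization were likewise named after their values were seen. Alternatives were DESeq2 1.42.0, limma-voom and limma 3.58.1 on log2(TPM + 1) or log2(TPM + 0.1), other size factors and filters, no minimum fold, a replicate block and leaving out each sample. The procedure was tested on simulated data. Transcripts were aligned with Biopython 1.88.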

Additional observations from a re-analysis of the deposited data

How the results depend on the processing

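The log2 fold changes of *Aldh1a1*, *Aldh1a3* and *Cyp26b1* kept their direction in all 16 alternatives, with ranges of -2.28 to -1.62, 1.47 to 1.86 and -1.81 to -1.31. That of *Crabp2* ranged from 1.38 to 3.27. The difference in the share of *Aldh1a1* ranged from -55.5 to -46.9 percentage points, the range over samples left out in turn. Signs of *Rdh10* and *Rara*, which were not called, turned when 1 sample was left out. Of the 9 genes, 2 met the thresholds upward with DESeq2, *Crabp2* joining *Aldh1a3*, and 1 downward with limma on log2(TPM + 1) with no filter.

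Over all genes, 304 calls upward became 165 with limma on log2(TPM + 1), 122 with no filter as well, and 989 with no minimum fold change, and 116 downward became 69, 46 and 833. With no minimum fold change, 5 other retinoid genes were higher and 5 lower, and 4 response genes were higher and 4 lower. The response list had 0 calls upward in each of the 3 fits on TPM, of which 2 left out its only called gene, *Muc16*, for its low TPM. Leaving out each sample gave 45 to 298 calls upward and 14 to 132 downward, always fewest without control replicate 2, from 1 to 2 members upward and 0 to 2 downward, 0 to 3 other retinoid genes upward and 0 to 2 response genes upward. These fits have fewer samples. The replicate numbers gave no evidence of pairing (correlations of same-numbered samples 0.0996, -0.0578 and 0.00617), and a fit with the replicate number as a block gave 278 calls upward and 112 downward, with 1 member upward and 2 downward and 4 other retinoid genes upward.

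Low counts limit genes such as *Crabp2*, *Muc16* and *Ugt1a7c*, and 3 samples a group limit all tests. The median log2 fold change of all genes lay between -0.02 and 0.01 over the 4 scalings.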

Other observations

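The 8391 tested genes with a mean of at least 10 TPM were ranked by how closely their 6 normalized values, centred on their control mean, followed those of 3 of the members. The genes nearest to *Aldh1a3* were *Rab31*, a small GTPase of vesicle traffic (root mean square difference 0.0838 on the log2 scale), *Stom*, a membrane scaffold protein (0.131), and *Ecm1*, a secreted protein of the skin's matrix (0.149). *Stom* had 107.34, 98.46 and 113.61 TPM in control samples and 512.97, 301.19 and 298.04 TPM in Ptch1Prrx1 samples. The genes nearest to *Cyp26b1* were *Osbpl6* (0.224), *Tppp* (0.257) and *Rasl11b* (0.276). *Aldh1a1* had no neighbour as close, the nearest being *Cyp4a12a*, a fatty acid hydroxylase (0.444), *Sbk1* (0.516) and *Ccn3* (0.534). *Cyp4a12a* had 216.65, 172.76 and 130.7 TPM in control samples and 19.95, 64.18 and 58.6 TPM in Ptch1Prrx1 samples. These distances are a description over 6 samples.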
